A study of Homo sapiens with 24 samples.

Results

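The genes described here encode the enzymes of glycolysis, the glucose transporters that feed it, the enzymes of the pentose phosphate pathway and their close partners. They were chosen by name as a module of 34 genes, and every probe set of the array annotated to exactly 1 of them was taken. That gave 80 probe sets, of 54675 on the array, and each gene was then represented by the 1 of them whose mean over the 24 arrays was highest, out of 19775 genes represented in that way. All 34 genes passed the filter on low values in both sets of arrays. The values are log2 RMA values of RNA level, so a difference of 1 is a doubling, and levels of different probe sets were not compared with each other.

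The RNA came from established human embryonic stem cell lines. In one set of 12 arrays the lines H1, H9 and HSF1 were each grown feeder-supported, on mouse embryonic fibroblasts (MEFs), or feeder-free. Each culture received DMSO or 250 nM AZD3965, an inhibitor of the lactate exporter MCT1, for 5 days, with 1 array per line and condition. In the other set of 12 arrays, feeder-free H9 and HSF1 cells were kept in unconditioned medium or in MEF-conditioned medium, with 3 biological replicates in each of 4 groups. How long conditioned medium was applied differs between the sources, 5 days in the labels and 24 hours in the design text. Each line is a single genetic background, and no source says that the human cells were separated from the feeders before RNA was taken.

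Glycolysis splits glucose into pyruvate and yields ATP, and cells that run it fast export the product as lactate. Its flux is set largely at glucose entry and phosphorylation, at phosphofructokinase and at pyruvate kinase. Fructose 2,6-bisphosphate, made and removed by the PFKFB enzymes, is the strongest activator of phosphofructokinase. The pentose phosphate pathway branches off glucose 6-phosphate and supplies NADPH and ribose 5-phosphate, which the PRPS enzymes turn into the precursor of nucleotides. Pluripotent stem cells in culture are known for a high rate of glycolysis, and feeders, secreted factors and lactate export bear on it in the question the study asked.

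The 14 pluripotency markers on the array were above log2 5 on every array. Their summed log2 level was 169.7 to 170.7 on the feeder-free DMSO arrays and 161.9 to 167.9 on the feeder-supported DMSO arrays. The summed level of 32 fibroblast markers was 235.8 to 260.9 on the former and 268.3 to 292.5 on the latter, and 235.8 to 244.2 over the 12 medium arrays. With DMSO 14 of the 32 passed as higher on feeders and 0 as lower, and 6 of the 14 pluripotency markers passed as lower and 0 as higher. Of the markers of other lineages tested, 7 of 10 for endoderm, 4 of 9 for neuroectoderm, 3 of 6 for trophoblast and 2 of 9 for mesoderm passed as higher, and 0, 2, 0 and 1 passed as lower. Among all genes tested 15.2% passed as higher in that comparison and 24.1% as lower. Values on the feeder-supported arrays were less spread, with an interquartile range of 2.45 to 2.85 against 3.08 to 3.30 on the feeder-free arrays of the same set, lowest on the HSF1 arrays. How far the 3-prime ACTB control exceeds the 5-prime one was used as a reading of RNA quality. Whether it follows RNA integrity on the feeder-supported arrays was not tested. This ACTB difference was -0.15 and -0.31 on the feeder-supported HSF1 arrays with DMSO and with inhibitor, against 0.44 to 1.19 on the other 10 arrays of that set. The 2 feeder-supported HSF1 arrays also had the lowest median correlation with other arrays, 0.900 and 0.885, against 0.960 to 0.985 on the rest of the set. Unconditioned H9 arrays 2 and 3 had an ACTB difference of 3.25 and 2.89, whereas the other medium arrays were at 1.07 to 1.84. The part of these shifts in the results below was not tested, beyond the fits without arrays or with the ACTB difference that are given there.

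**Figure D1:**
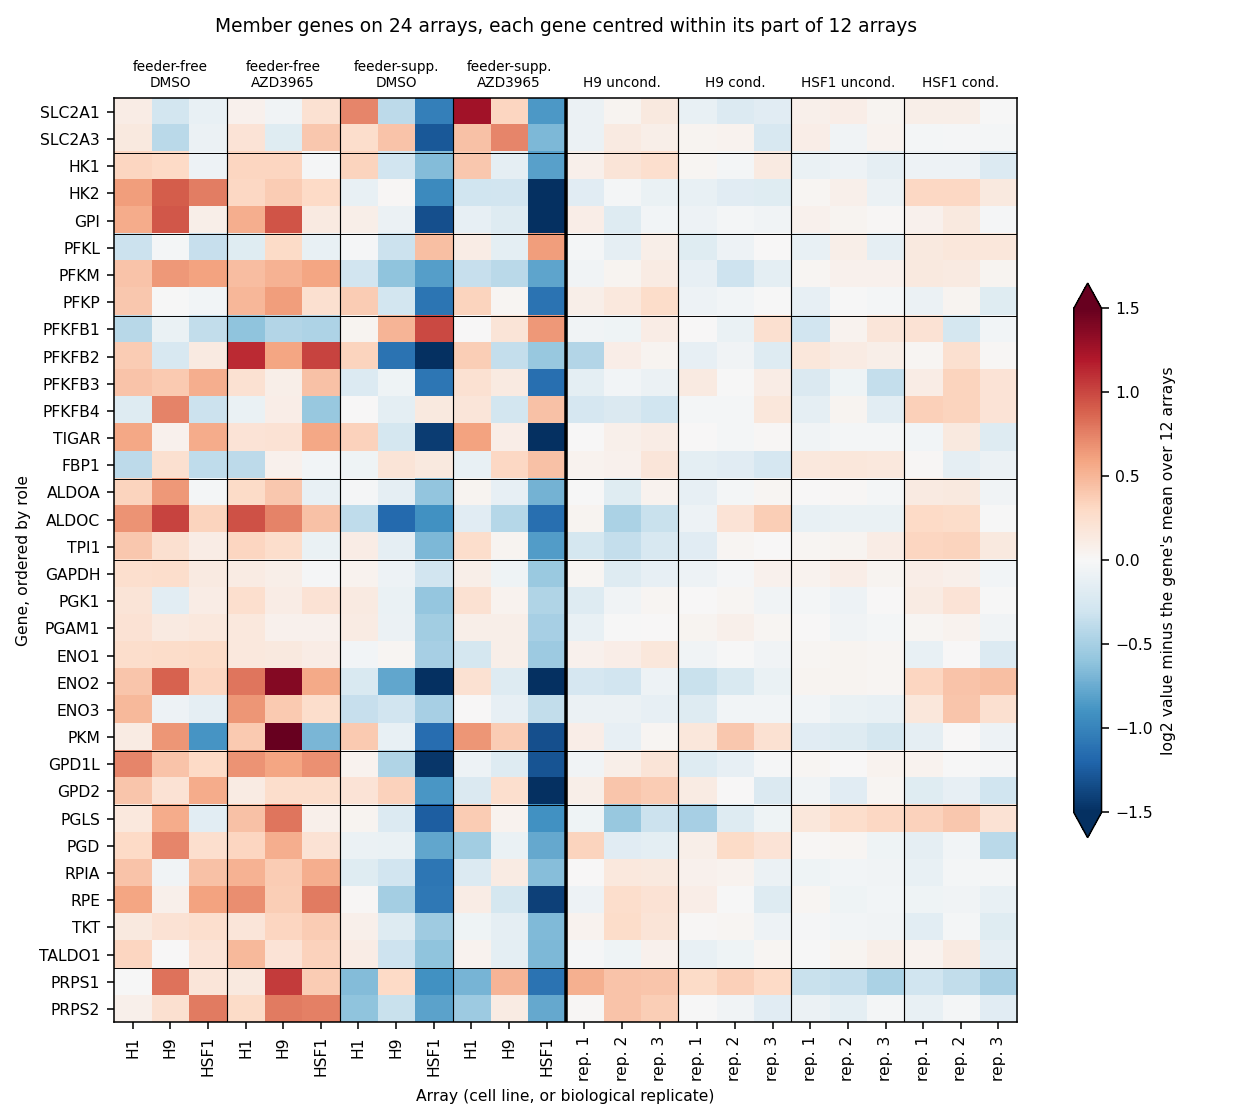
Log2 value of each of the 34 genes (rows, by role, divided by thin lines) on each of the 24 arrays (columns), minus that gene's mean over the 12 arrays of its set. The 3 feeder-supported arrays of each treatment hold most of the low values, deepest for HSF1, and the medium arrays to the right of the thick line differ less.

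The genes varied unequally over the 24 arrays. ENO2, the neuronal-type enolase, had the widest range, 3.41 on the log2 scale, followed by PKM with 2.84, HK2 with 2.83 and PFKFB2 with 2.80. PGAM1, the phosphoglycerate mutase, had the narrowest range, 0.740, and GAPDH, FBP1, PGK1 and ENO1 stayed within 0.822 to 0.919. These ranges run over both sets of arrays, so any offset between the sets enters them. PKM in feeder-free H9 was at 10.76 with DMSO in the inhibitor set and at 9.29 to 9.51 in unconditioned medium in the other set.

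The first comparison asked how feeder-supported cells differed from feeder-free cells, both with DMSO. RNA of 18 of the 34 genes was lower in feeder-supported culture and that of 1 was higher, by limma with the line as a block and Benjamini-Hochberg adjustment over all 17218 genes tested. Over all genes tested 39.3% passed in either direction, 24.1% lower and 15.2% higher. The median difference of the 34 genes was -0.49, against -0.19 for all genes tested, and 31 of the 34 lay below 0. The fit took its error from the arrays of both treatments. It treated the DMSO and inhibitor arrays of a line and culture as independent. Where the lines differed unequally between cultures, the SEs and adjusted p-values of this comparison can therefore overstate the precision over lines. In RNA from a whole culture, fewer cells of a type and less RNA per cell cannot be told apart, nor can mouse RNA that binds the probes be told apart from human RNA.

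ENO2 and ALDOC had the largest decreases, of 2.86-fold and 2.82-fold, and the chosen probe sets of all 3 enolases and both aldolases were lower. Values are given in the order H1, H9 and HSF1. ALDOC, the brain-type aldolase, measured 9.61, 9.94 and 9.27 in feeder-free H1, H9 and HSF1 cells and 8.55, 7.77 and 8.02 in the same lines on feeders. All 3 feeder-supported values were below all 3 feeder-free values, and the gene fell by 1.49 (SE 0.243, adjusted p = 0.00319). ALDOA, the aldolase of most tissues, went from 12.99, 13.31 and 12.64 to 12.64, 12.53 and 12.07 and fell by 0.57 (SE 0.122, adjusted p = 0.00944), with H1 on feeders level with feeder-free HSF1. All 3 ALDOA probe sets passed as lower. ENO2 was at 9.20, 9.67 and 9.10 feeder-free and 8.55, 8.002 and 6.87 on feeders, a fall of 1.52 (SE 0.321, adjusted p = 0.00907). The differences of ENO2 were -0.65 in H1, -1.67 in H9 and -2.24 in HSF1, so the lines kept the same direction but differed in size. ENO1, the enolase of most cells, fell by 0.45 and ENO3, the muscle type, by 0.47. Probe sets of ENO1 disagreed, since 2 of the 4 were higher on feeders without passing, and their mean was -0.05. ENO3 had 1 probe set tested, and its other one was above log2 5 on 0 arrays. The mean of these 2 was -0.18, and neither mean passed. TPI1, which interconverts the triose phosphates made by aldolase, fell by 0.48 (SE 0.157, adjusted p = 0.0337).

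At the entry to the pathway, HK2 and GPI were lower and the transporters did not pass. HK2, the inducible hexokinase bound to mitochondria, measured 10.86, 11.15 and 11.003 feeder-free and 10.13, 10.25 and 9.28 on feeders in H1, H9 and HSF1, and its other 2 probe sets passed as lower as well. The groups did not overlap, and HK2 fell by 1.12 (SE 0.281, adjusted p = 0.0156). GPI, which turns glucose 6-phosphate into fructose 6-phosphate, went from 11.33, 11.71 and 10.86 to 10.86, 10.69 and 9.46 and fell by 0.97 (SE 0.228, adjusted p = 0.0128). It was lower in each line, and its highest value on feeders lay just under its lowest feeder-free value. HK1, the constitutive hexokinase, missed the threshold at -0.39 (SE 0.206, adjusted p = 0.133).

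The glucose transporters had no common direction across lines. SLC2A1 (GLUT1), the basal transporter, was at 8.96, 8.57 and 8.73 feeder-free and 9.57, 8.45 and 7.82 on feeders. Its differences were 0.61 in H1, -0.12 in H9 and -0.91 in HSF1, and the mean of -0.14 has a 95% interval of -0.96 to 0.68. SLC2A3 (GLUT3), the high-affinity transporter, was at 12.30, 11.75 and 12.07, against 12.41, 12.58 and 10.88, with differences of 0.12 in H1, 0.83 in H9 and -1.18 in HSF1. HSF1 was the only line with both transporters clearly lower, and neither gene passed the test.

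Among the phosphofructokinases, which commit fructose 6-phosphate to glycolysis, only the muscle type passed. PFKM measured 10.52, 10.74 and 10.70 feeder-free and 9.81, 9.50 and 9.27 on feeders, without overlap, and fell by 1.13 (SE 0.205, adjusted p = 0.00525). The platelet type PFKP differed by -0.45 (adjusted p = 0.169) and the liver type PFKL by 0.27 (adjusted p = 0.384). Among the enzymes that make and remove fructose 2,6-bisphosphate, PFKFB2 and PFKFB3 fell by 0.91 and 0.90 (adjusted p = 0.0335 and 0.0451), and PFKFB1 alone of the 34 genes rose. PFKFB2 was at 7.43, 6.81 and 7.18 feeder-free and 7.38, 5.94 and 5.37 on feeders, so H1 was nearly level and the groups overlapped. Of its 4 probe sets 3 were lower on feeders, and its call was lost in 7 of 14 alternatives. PFKFB3, the isoform with the highest ratio of kinase to phosphatase activity, was at 9.15, 9.12 and 9.28 feeder-free and 8.52, 8.67 and 7.64 on feeders. PFKFB1, the liver isoform, was at 5.63, 5.95 and 5.67, against 6.08, 6.55 and 7.03, a rise of 0.80 (SE 0.195, adjusted p = 0.0139), from levels just above the filter at 5. Its other probe set differed by 0.28 and did not pass. PFKFB4, TIGAR, which lowers fructose 2,6-bisphosphate, and FBP1, the gluconeogenic phosphatase, did not pass.

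In lower glycolysis, apart from ENO2, the changes were small. GAPDH, the glyceraldehyde 3-phosphate dehydrogenase, was at 14.39, 14.40 and 14.27 feeder-free and 14.19, 14.06 and 13.85 on feeders, and fell by 0.32 (SE 0.0968, adjusted p = 0.0265). 4 of its 6 probe sets passed as lower. PKM, which encodes the muscle-type pyruvate kinases, was at 10.22, 10.76 and 9.21, against 10.49, 9.98 and 8.95. Its differences were 0.27 in H1, -0.78 in H9 and -0.26 in HSF1, so H1 was higher and H9 lower, and it did not pass (adjusted p = 0.466). PGK1 and PGAM1 differed by -0.23 and -0.33 and did not pass either. GPD1L, which is related to the glycerol 3-phosphate dehydrogenases, measured 8.10, 7.80 and 7.66 feeder-free and 7.42, 6.91 and 5.90 on feeders, and fell by 1.11 (SE 0.273, adjusted p = 0.0146) with no overlap. GPD2, the mitochondrial enzyme of the glycerol phosphate shuttle, differed by -0.51 (SE 0.360, adjusted p = 0.247).

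3 of the 6 pentose phosphate enzymes and both PRPS genes were lower. PGD, the 6-phosphogluconate dehydrogenase of the oxidative branch, went from 11.64, 12.08 and 11.59 to 11.26, 11.25 and 10.57 and fell by 0.75 (SE 0.168, adjusted p = 0.011), without overlap. PGD's other probe sets went the other way, by 0.52, which passed, and 0.31, which did not, and the mean of its probe sets differed by 0.03. In the non-oxidative branch RPE and RPIA, the ribulose 5-phosphate epimerase and isomerase, fell by 0.95 and 0.79 (adjusted p = 0.0378 and 0.0409). TKT, TALDO1 and PGLS differed by -0.42, -0.45 and -0.65 and lay just outside the threshold (adjusted p = 0.0522, 0.0523 and 0.0513). PRPS1 and PRPS2 fell by 0.75 and 0.95 (adjusted p = 0.0188 and 0.0209), with both probe sets of each gene past the threshold.

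**Figure D2:**
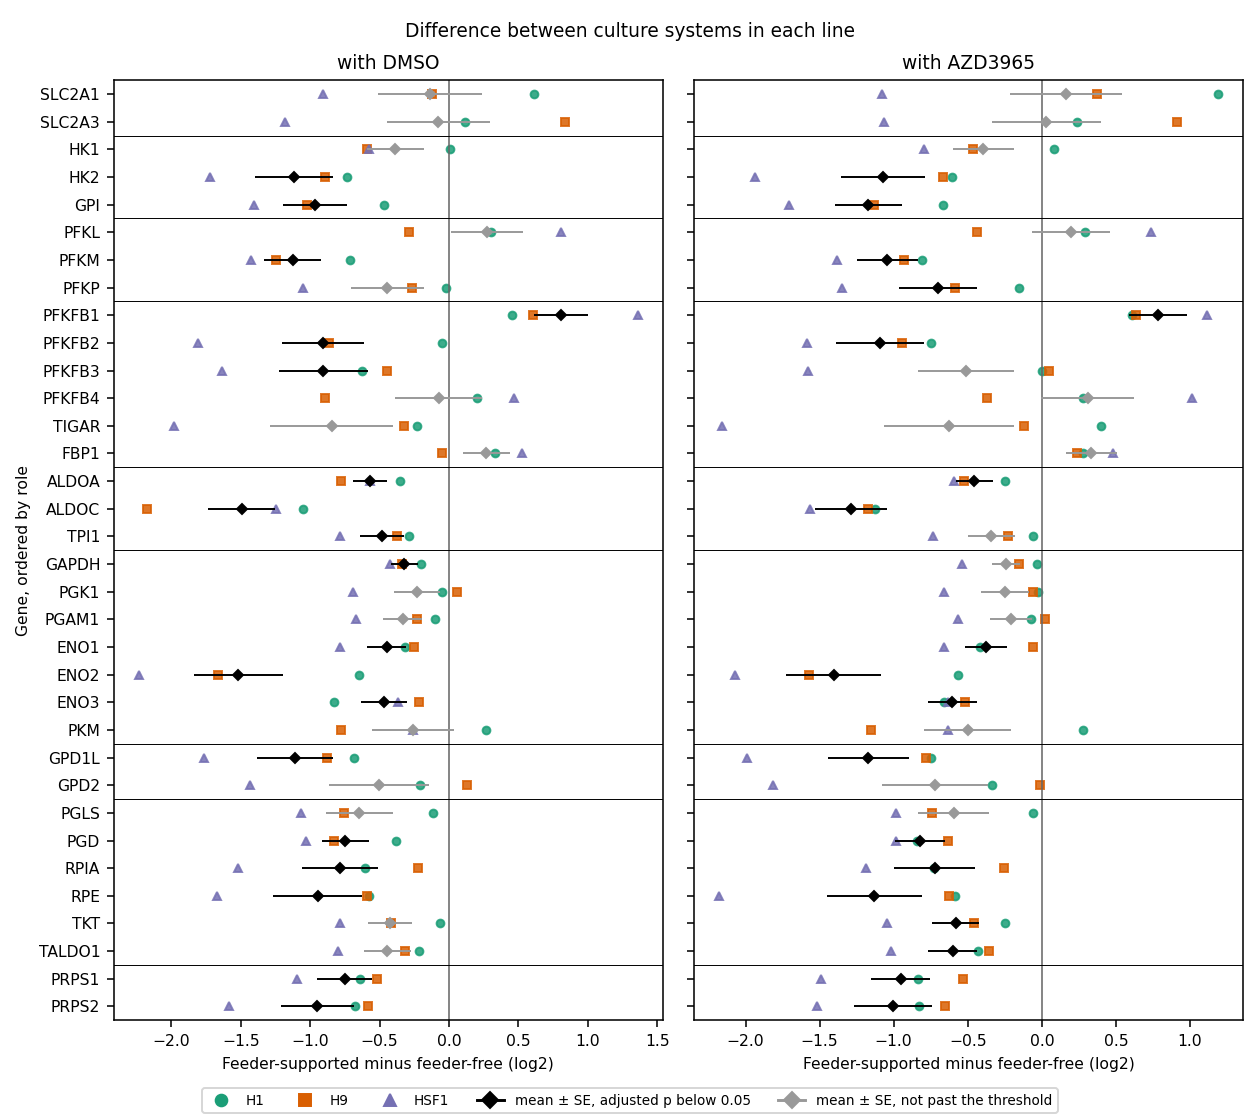
Feeder-supported minus feeder-free difference in log2 value (horizontal axis) for each gene (rows, by role), with DMSO on the left and AZD3965 on the right. Coloured symbols are the 3 lines, diamonds the fitted mean with its SE, black where the adjusted p is below 0.05. HSF1 (triangles) lies farthest left for 25 of the 34 genes with DMSO and 28 with AZD3965.

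HSF1 differed most. The median difference of the 34 genes was -0.22 in H1, -0.43 in H9 and -1.04 in HSF1, against -0.09, -0.12 and -0.28 for all genes tested, and HSF1 had the lowest difference for 25 of the 34. 24 of the 34 genes were lower in all 3 lines, which held for 43.0% of all genes tested. The groups of 3 did not overlap for 17 genes, 16 of them lower, against 52.3% of all genes tested in either direction and 30.6% lower.

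By probe set, 35 of the 75 tested passed, 31 lower and 4 higher, where 39.5% of all 42070 probe sets passed, 23.2% lower and 16.4% higher. The 4 higher ones belong to PFKFB1, PGD, GPD2 (0.73) and PGK1 (1.55). In PGK1 and GPD2 the chosen probe set did not pass, and no probe set of these genes passed as lower.

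The difference also moved with a gene's level. Over all genes tested, the median difference was 0.42 for genes with a mean log2 level up to 6, 0.12 from 6 to 8, -0.62 from 8 to 10, -0.47 from 10 to 12 and -0.21 above 12. The 34 genes had medians of -0.47 (5 genes), -0.79 (11 genes), -0.75 (10 genes) and -0.38 (8 genes) in the last 4 of these classes, below all genes tested in each. In those classes 3, 5, 6 and 4 of the members passed as lower, and 21%, 38.6%, 27.7% and 21.4% of all genes did.

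The number of the 34 genes that passed was 5 without H1, 0 without H9 and 18 without HSF1, and 0 with the ACTB 3-prime minus 5-prime difference as a covariate. The shares of all genes passing in these fits are not given here. The counts are therefore not a result about the 34 genes in particular. With the mean over probe sets PFKFB1 (0.37), PFKFB2 (-0.35) and TPI1 (-0.42) lost the call, beside ENO1, ENO3 and PGD. For PFKFB1 and ENO3 this mean took in a probe set that did not pass the filter. Without the feeder-supported HSF1 arrays alone 22 genes passed, 20 of them lower. ALDOC and PFKM lost the call under 2 of 14 alternatives, the covariate and the fit without H9. With quantile normalization, which brought the median of all genes from -0.189 to 0.0379, the members' median was -0.28 and 12 passed, 11 of them lower. Of all 17041 genes tested in that fit 3133 passed.

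With the inhibitor in both culture systems, on different arrays of the same lines, the counts were the same. Again 18 of the 34 genes were lower on feeders and 1 was higher, where 47.1% of all genes tested passed, 27.8% lower and 19.3% higher. The median difference was -0.60, against -0.20 for all genes tested. Both comparisons came from the same fit and shared its error, so the limit on precision over lines given above applies here too. 16 of the 19 genes had also passed with DMSO, among them HK2, GPI, PFKM, both aldolases, the 3 enolases and both PRPS genes. PFKP, TKT and TALDO1 passed only here and PFKFB3, TPI1 and GAPDH only with DMSO, and the difference between the treatments passed for none of the 34 genes.

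ALDOC with the inhibitor was at 9.88, 9.67 and 9.36 feeder-free and 8.76, 8.50 and 7.80 on feeders, a fall of 1.29 (SE 0.243, adjusted p = 0.00504). GPI went from 11.33, 11.72 and 10.91 to 10.66, 10.58 and 9.20 and fell by 1.17 (SE 0.228, adjusted p = 0.00575), and PFKM went from 10.56, 10.62 and 10.69 to 9.76, 9.69 and 9.30 and fell by 1.04 (SE 0.205, adjusted p = 0.00595). All 3 genes were lower on feeders in each line, and GPI, ALDOC and PFKM had no overlap between groups. PRPS1 was at 11.42, 12.32 and 11.66, against 10.59, 11.79 and 10.17, where H9 stands above the other lines in both cultures, and fell by 0.95 (SE 0.200, adjusted p = 0.00754). ENO2 was at 9.58, 10.16 and 9.35, against 9.02, 8.59 and 7.28 and fell by 1.40 (SE 0.321, adjusted p = 0.00996). PGD and GPD1L fell by 0.82 and 1.17 and PFKFB1 rose by 0.79 (adjusted p = 0.00695, 0.0105 and 0.0126). Without H1 2 of the 34 genes passed, without H9 6 and without HSF1 18, and with the ACTB covariate 0. As with DMSO, the shares of all genes passing in these fits are not given here. Without the feeder-supported HSF1 arrays alone 20 passed, 17 lower and 3 higher. With the mean over probe sets ENO1 (-0.03), ENO3 (-0.12), PFKP (-0.22) and PGD (0.04) lost the call. For ENO3 and PFKP this mean took in a probe set that did not pass the filter.

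The next comparison asked what blocking MCT1 did to these genes. No member passed in feeder-free culture, in feeder-supported culture, in their mean or in the difference between them, by limma with the line as a block. At an unadjusted p under 0.05 there were 1, 0, 2 and 0 members. Of all genes tested 0.842%, 0.00581%, 0.639% and 0.0174% passed. The median difference of the 34 genes in the mean of both cultures was 0.09.

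Some genes stood on the same side in all 6 pairs of an inhibitor array and the DMSO array of the same line and culture. ENO2, ENO3, PFKFB2, PFKL, PGK1, PGLS and SLC2A3 were higher in 6 of 6 pairs, as were 9.93% of all genes tested. HK2 and PFKFB1 were lower in 6 of 6 pairs, as were 6.55% of all genes tested. These counts hold for the chosen probe sets. With the inhibitor on feeders only 1 of the 3 HK2 probe sets and 1 of the 2 PFKFB1 probe sets had a lower mean, and feeder-free 3 of 3 and 2 of 2 had. PFKFB2, the cardiac isoform that raises fructose 2,6-bisphosphate, was at 7.43, 6.81 and 7.18 with DMSO and 8.17, 7.63 and 8.07 with the inhibitor in feeder-free H1, H9 and HSF1 cells. On feeders it was at 7.38, 5.94 and 5.37, against 7.42, 6.69 and 6.48. The mean difference of PFKFB2 was 0.73 (SE 0.209, adjusted p = 0.221), with H1 on feeders nearly level. HK2 was at 10.55, 10.62 and 10.54 with the inhibitor in feeder-free cells and 9.95, 9.95 and 8.60 on feeders, to be set against the DMSO values above. Its differences were -0.31, -0.53 and -0.46 in feeder-free H1, H9 and HSF1 and -0.18, -0.31 and -0.68 on feeders, and the mean was -0.41 (SE 0.199, adjusted p = 0.669). ENO2 had differences of 0.38, 0.49 and 0.25 feeder-free and 0.46, 0.59 and 0.41 on feeders, with a mean of 0.43 (SE 0.227, adjusted p = 0.734).

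SLC2A3 had a mean difference of 0.31 (SE 0.260, adjusted p = 0.938) and SLC2A1 of 0.32 (SE 0.266, adjusted p = 0.932), with SLC2A1 lower in feeder-free H1 alone. Inhibited feeder-free cells were at 8.91, 8.79 and 9.07 for SLC2A1 and 12.36, 11.98 and 12.55 for SLC2A3, and inhibited feeder-supported cells at 10.10, 9.17 and 7.99 and 12.60, 12.89 and 11.49. GAPDH, PKM and PFKFB3 had mean differences of -0.11 (GAPDH), 0.32 (PKM) and close to 0 (PFKFB3), with 95% intervals of -0.26 to 0.04, -0.14 to 0.77 and -0.50 to 0.50.

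The block by line leaves in the error how unequally the lines differed between cultures. With each pair of line and culture as the block instead, 10 of the 34 genes passed in the mean of both cultures, 8 higher and 2 lower, where 15.9% of all genes tested passed, 10.5% higher and 5.38% lower. Higher were PFKFB2 (0.73, adjusted p = 0.00116), ENO2 (0.43, adjusted p = 0.00174), SLC2A3, PGLS, SLC2A1, PGK1, ENO3 and PKM. Lower were HK2 (-0.41, adjusted p = 0.00239) and GPD2 (-0.29, adjusted p = 0.0395). HK2's other probe sets made its mean over probe sets -0.17.

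**Figure D3:**
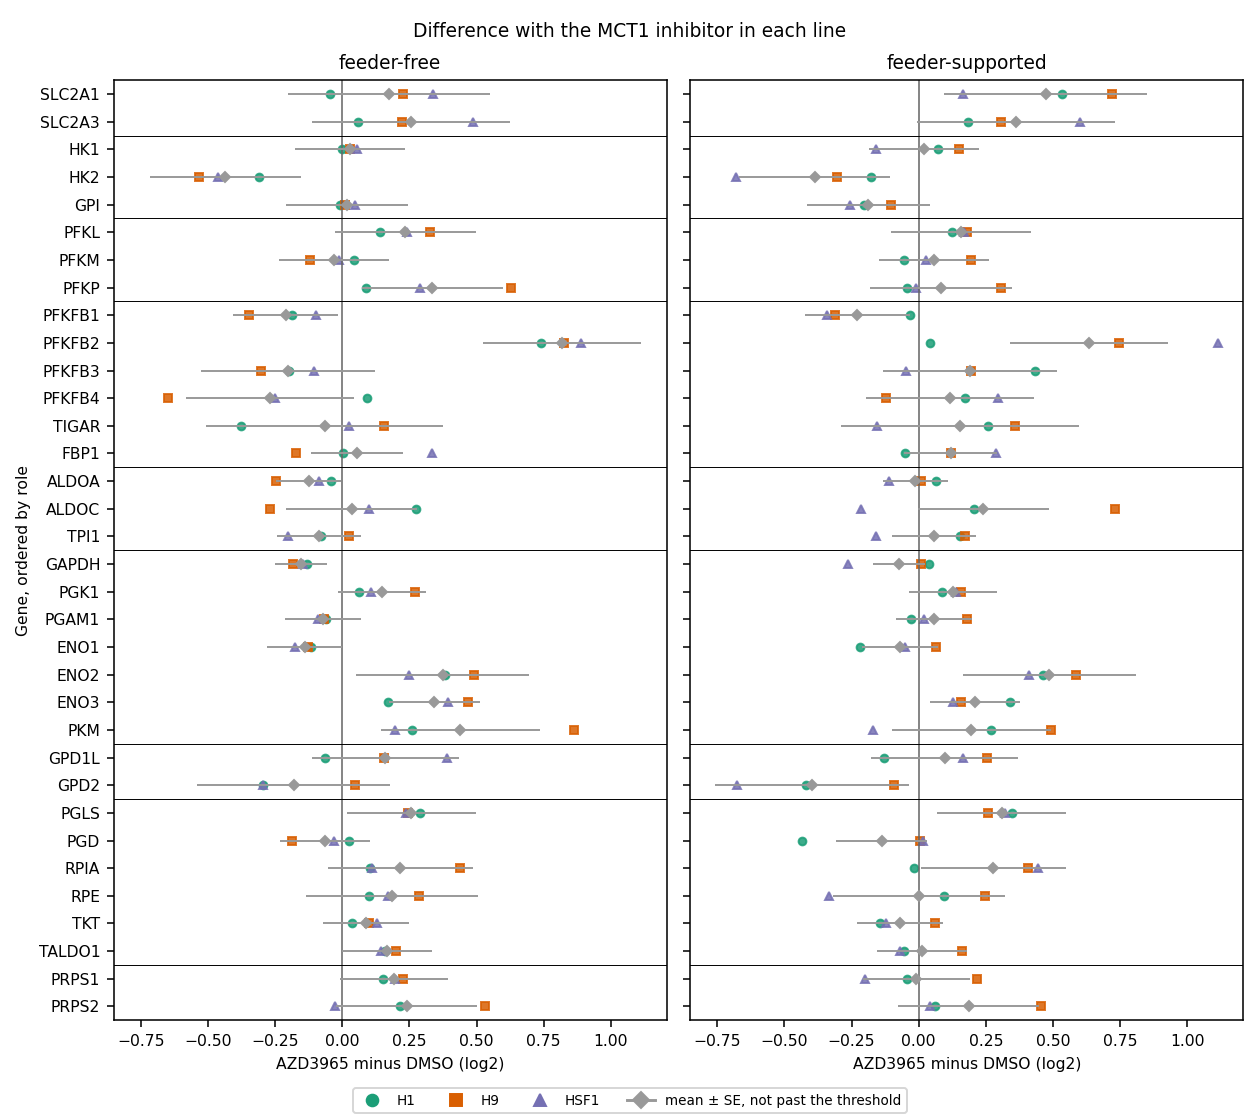
AZD3965 minus DMSO difference in log2 value (horizontal axis) for each gene (rows, by role) in feeder-free culture (left) and feeder-supported culture (right). Coloured symbols are the 3 lines and grey diamonds the fitted mean with its SE, none of which passed with the line as a block. PFKFB2 and ENO2 lie to the right of 0 and HK2 to the left in all 6 pairs.

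The last comparison asked what medium conditioned by MEFs did to feeder-free cells, and here the differences were small and ran both ways. In H9 10 of the 34 genes passed, 4 higher and 6 lower, where 16.4% of all genes tested passed, 3.45% higher and 13.0% lower. In HSF1 7 passed, 6 higher and 1 lower, where 18.3% of all genes tested passed, 8.57% higher and 9.78% lower. The medians of the 34 genes were -0.05 and 0.00. PFKFB4 and TPI1 rose and FBP1 fell in both lines, 30% of the genes called in H9 and 42.9% of those called in HSF1. Over all genes tested the shares called in both lines in the same direction were 32.7% and 29.3%. In HSF1 the call of FBP1 was lost in 13 of 22 alternatives and that of TPI1 in 9 of 22, and in both genes leaving out any 1 of the 3 unconditioned HSF1 arrays was enough.

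Lineage markers differed between the media as well. In the mean of both lines 5 of 9 endoderm, 5 of 9 mesoderm, 4 of 6 trophoblast and 3 of 9 neuroectoderm markers passed as higher and 0, 0, 1 and 1 as lower. Of the fibroblast markers 6 of 29 passed as higher and 8 as lower, and of the pluripotency markers 4 of 14 and 1. Among all genes tested 7.86% passed as higher in that mean and 16.2% as lower. The summed level of the 7 trophoblast markers on the array was 39.6 to 41.1 in unconditioned and 42.3 to 43.3 in conditioned H9 cells, and 40.7 to 41.3 and 44.8 to 46.0 in HSF1 cells. The summed level of the 10 endoderm markers was 55.1 to 56.9 and 59.6 to 60.3 in H9, and 56.9 to 57.2 and 59.7 to 60.7 in HSF1. The part of these shifts in the members' differences was not tested.

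Of the 6 genes around fructose 2,6-bisphosphate, PFKFB4 and FBP1 passed in both lines, PFKFB3 in HSF1, and PFKFB1, PFKFB2 and TIGAR in neither. Unconditioned values come first here, in the order of the replicates, and conditioned values second. PFKFB3 was at 8.99, 9.13 and 8.84 in unconditioned and 9.31, 9.54 and 9.41 in conditioned HSF1 cells, without overlap, and rose by 0.43 (SE 0.0839, adjusted p = 0.00186). In H9 PFKFB3 was at 9.05, 9.16 and 9.11, against 9.34, 9.19 and 9.31, also without overlap, a difference of 0.17 that did not pass (adjusted p = 0.167). PFKFB4, a close relative induced by low oxygen, was at 8.83, 8.87 and 8.78, against 9.05, 9.05 and 9.25 in H9 and rose by 0.29 (SE 0.0798, adjusted p = 0.0225). In HSF1 it went from 8.95, 9.12 and 8.92 to 9.44, 9.41 and 9.29 and rose by 0.38 (SE 0.0798, adjusted p = 0.00299). Its other probe set differed by -0.06 in HSF1, and the mean over probe sets, 0.16, did not pass. FBP1, which runs the phosphofructokinase step backwards, was at 6.73, 6.73 and 6.85, against 6.53, 6.50 and 6.42 in H9, and at 6.83, 6.84 and 6.83, against 6.69, 6.54 and 6.58 in HSF1. Conditioned values of FBP1 lay below all unconditioned values in each line, and it fell by 0.29 (SE 0.0786, adjusted p = 0.0196) in H9 and by 0.23 (SE 0.0786, adjusted p = 0.0495) in HSF1.

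Among the aldolase steps, TPI1 was at 12.51, 12.41 and 12.53, against 12.60, 12.79 and 12.77 in H9, and at 12.80, 12.81 and 12.87, against 13.10, 13.10 and 12.92 in HSF1. It rose by 0.23 (SE 0.064, adjusted p = 0.0206) and by 0.21 (SE 0.064, adjusted p = 0.0319). ALDOC was at 9.49, 8.97 and 9.12, against 9.38, 9.65 and 9.82 in H9, with overlap, and rose by 0.42 (SE 0.126, adjusted p = 0.0325). In HSF1 ALDOC was at 9.34, 9.35 and 9.34, against 9.74, 9.72 and 9.44, without overlap, a difference of 0.29 that did not pass (adjusted p = 0.125). PKM in H9 was at 9.51, 9.29 and 9.44, against 9.58, 9.82 and 9.64 and rose by 0.27 (SE 0.0795, adjusted p = 0.0319), and in HSF1, at 9.24, 9.21 and 9.14, against 9.28, 9.41 and 9.34, it differed by 0.14 (adjusted p = 0.233).

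ENO2, ENO3 and, by its chosen probe set, HK2 rose in HSF1. ENO2 was at 9.87, 9.87 and 9.86, against 10.15, 10.26 and 10.28 in HSF1, a rise of 0.37 (SE 0.0758, adjusted p = 0.00294), and at 9.57, 9.54 and 9.75, against 9.50, 9.60 and 9.73 in H9, a difference of -0.01. ENO2 was the only gene of the 34 to pass the test of the difference between the lines' responses, by 0.38 (SE 0.107, adjusted p = 0.0412), where 7.73% of all genes tested passed. ENO3 went from 7.41, 7.35 and 7.34 to 7.62, 7.87 and 7.70 in HSF1 and rose by 0.36 (SE 0.081, adjusted p = 0.00504). HK2 was at 11.15, 11.20 and 11.04, against 11.43, 11.43 and 11.27 in HSF1 and rose by 0.25 (SE 0.0661, adjusted p = 0.0142), and at 10.95, 11.09 and 11.03, against 11.01, 10.95 and 10.94 in H9. HK2's other 2 probe sets fell in HSF1, by 0.38 and 0.39, and both passed as lower, so the probe sets disagree on its direction. Their mean differed by -0.17 and passed as lower (adjusted p = 0.0499 by limma). In 13 of 23 alternatives this ENO2 difference between lines no longer passed, and over all 23 the adjusted p was 0.00587 to 1.00. These include leaving out H9 unconditioned array 3, H9 conditioned array 1 or 2, any HSF1 unconditioned array, or HSF1 conditioned array 2 or 3.

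In H9 PRPS2, GPD2, PFKM, PFKP and TKT were lower with conditioned medium. PRPS2, a ribose phosphate kinase, was at 9.55, 9.96 and 9.91, against 9.54, 9.48 and 9.37 and fell by 0.34 (SE 0.0938, adjusted p = 0.0205). PFKM was at 10.62, 10.72 and 10.79, against 10.55, 10.36 and 10.53 and fell by 0.23 (SE 0.0678, adjusted p = 0.0298). GPD2 was at 9.48, 9.80 and 9.77, against 9.51, 9.39 and 9.18, with overlap, and fell by 0.32 (SE 0.0988, adjusted p = 0.0361). SLC2A1, at 8.77, 8.91 and 9.01, against 8.75, 8.66 and 8.69 in H9, and SLC2A3, at 12.13, 12.35 and 12.31, against 12.26, 12.28 and 11.98, did not pass. In HSF1 they were at 8.94, 8.96 and 8.91, against 8.95, 8.95 and 8.86, and 12.32, 12.17 and 12.27, against 12.19, 12.21 and 12.20, where the groups overlap. GAPDH differed by 0.08 in H9 and -0.01 in HSF1, with 95% intervals of -0.04 to 0.20 and -0.14 to 0.11.

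By probe set 5 of 74 member probe sets passed in H9, 2 higher and 3 lower, where 10.1% of all probe sets passed, and 13 of 74 in HSF1, 8 higher and 5 lower, where 11.4% passed. Of the genes called above, no probe set of ALDOC, PKM, GPD2, PFKP or TKT passed in H9, and none of FBP1 in HSF1.

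Averaged over H9 and HSF1, 11 of the 34 genes passed, 7 higher and 4 lower, where 24.0% of all genes tested passed, 7.86% higher and 16.2% lower. Higher were ALDOC (0.36), PFKFB4 (0.34), PFKFB3 (0.30), TPI1 (0.22), PKM, ENO2 and ENO3, and lower were FBP1 (-0.26), GPD2, ENO1 and TKT. PFKFB3, PFKFB4, TPI1 and FBP1 lost the call in 1 of 23 alternatives, the fit over all 24 arrays. The call was lost in 2 for ALDOC, 3 for PKM and ENO1, 9 for ENO2 and GPD2, 11 for ENO3 and 12 for TKT. ENO1's mean over probe sets, -0.06, did not pass. In H9 alone the 10 calls became 0 without unconditioned arrays 2 and 3, the arrays with the large ACTB difference, and 0 with that difference as a covariate. Without them the differences in H9 were smaller for PRPS2 (-0.09), GPD2 (-0.12), ALDOC (0.12), TKT (-0.06), PFKM (-0.14), PFKP (-0.13) and PKM (0.17). They were close to the full values for PFKFB4 (0.28), FBP1 (-0.25) and TPI1 (0.21). With the mean over probe sets GPD2, PFKP, TKT and TPI1 lost the call in H9 and ENO3 (0.11) in HSF1. For GPD2, PFKP and ENO3 this mean took in a probe set that did not pass the filter. Leaving out 1 array changed the H9 count to between 1 and 16 (1 without unconditioned array 3 or conditioned array 3, 2 without array 2 of either medium, 16 without unconditioned array 1) and the HSF1 count to between 4 (without HSF1 unconditioned array 3) and 8. The count for the mean of both lines was 7 to 16, lowest without H9 conditioned array 3 or HSF1 unconditioned array 3. For the fits with a covariate or without arrays, the shares of all genes passing are not given here.

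**Figure D4:**
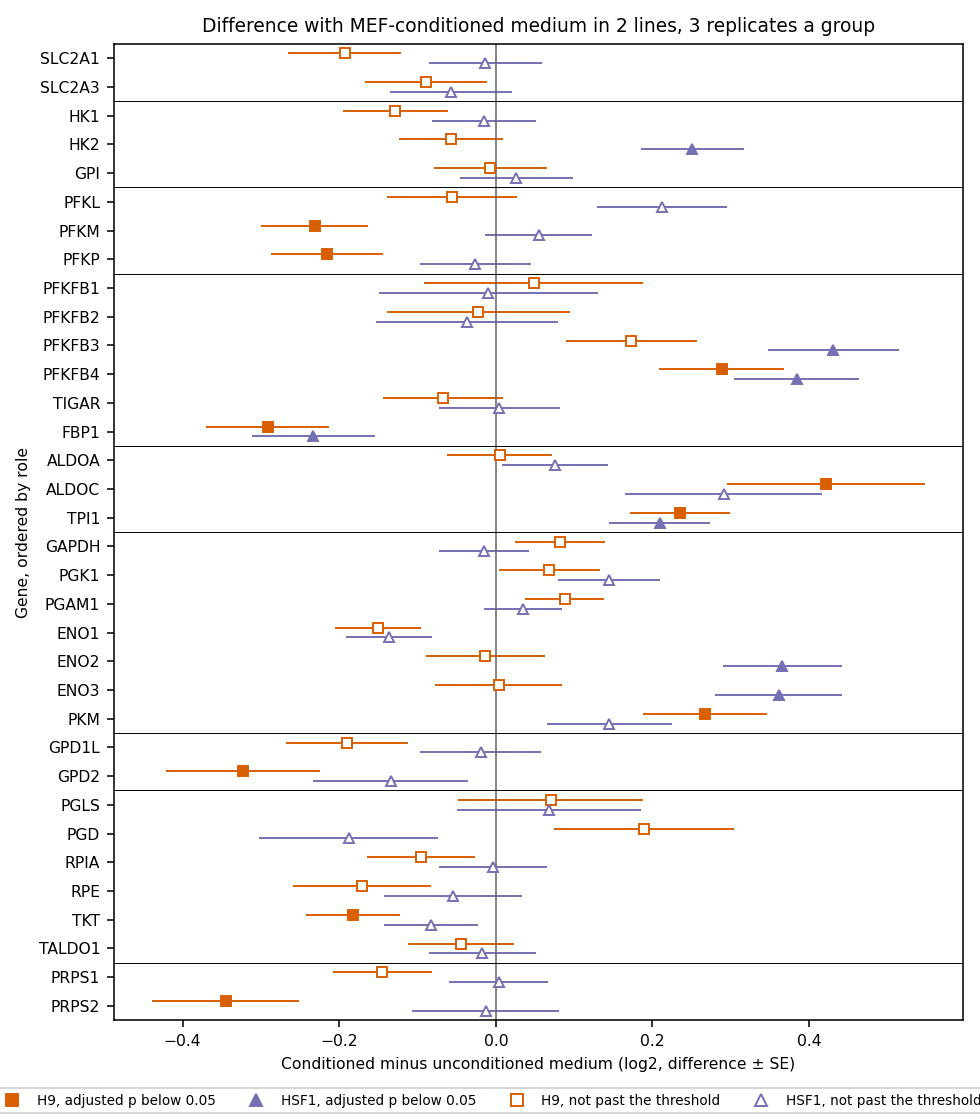
Conditioned minus unconditioned difference in log2 value with its SE (horizontal axis) for each gene (rows, by role) in H9 (squares) and HSF1 (triangles), 3 replicates a group. Filled symbols passed at an adjusted p below 0.05, and PFKFB4, TPI1 and FBP1 are filled in both lines.

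Promoters of genes in this module are known to hold sites for HIF1, the factor that answers low oxygen, and for MYC. The promoters of 4 genes that rose with conditioned medium in the mean of both lines and of FBP1, which fell, are shown so that such letters can be seen in place. Of these genes, ENO2 rose in HSF1 and was nearly level in H9. The promoters shown are 250 bases before the RefSeq start on GRCh38.p14, printed on the gene's strand. Capitals mark ACGTG or GCGTG, the core letters of the HIF1 site, on either strand (CACGT or CACGC on the other), and both ACGTG matches of CACGTG, the MYC site, are in 1 run. The windows are PFKFB3 at chr10:6144671-6144920, plus strand, PFKFB4 at chr3:48556804-48557053, minus strand, ALDOC at chr17:28576896-28577145, minus strand, ENO2 at chr12:6914330-6914579, plus strand and FBP1 at chr9:94639519-94639768, minus strand.
PFKFB3: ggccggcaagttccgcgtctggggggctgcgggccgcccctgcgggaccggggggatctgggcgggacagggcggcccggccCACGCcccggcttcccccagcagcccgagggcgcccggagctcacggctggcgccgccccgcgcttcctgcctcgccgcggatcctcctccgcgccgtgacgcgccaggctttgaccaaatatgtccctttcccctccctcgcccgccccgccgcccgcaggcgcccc
PFKFB4: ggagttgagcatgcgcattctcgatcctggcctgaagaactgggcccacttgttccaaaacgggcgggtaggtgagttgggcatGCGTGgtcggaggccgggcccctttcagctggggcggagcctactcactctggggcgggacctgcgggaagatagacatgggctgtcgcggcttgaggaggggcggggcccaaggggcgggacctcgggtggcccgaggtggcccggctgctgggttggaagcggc
ALDOC: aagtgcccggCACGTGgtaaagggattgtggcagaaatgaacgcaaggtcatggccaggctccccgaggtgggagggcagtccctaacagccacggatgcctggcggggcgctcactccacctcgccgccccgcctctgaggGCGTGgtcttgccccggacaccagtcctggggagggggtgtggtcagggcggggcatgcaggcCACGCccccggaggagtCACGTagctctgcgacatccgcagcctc
ENO2: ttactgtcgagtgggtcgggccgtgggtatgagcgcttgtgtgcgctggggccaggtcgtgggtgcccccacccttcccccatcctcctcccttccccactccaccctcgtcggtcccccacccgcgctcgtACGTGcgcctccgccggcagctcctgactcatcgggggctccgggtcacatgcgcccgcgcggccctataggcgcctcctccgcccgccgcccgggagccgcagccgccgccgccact
FBP1: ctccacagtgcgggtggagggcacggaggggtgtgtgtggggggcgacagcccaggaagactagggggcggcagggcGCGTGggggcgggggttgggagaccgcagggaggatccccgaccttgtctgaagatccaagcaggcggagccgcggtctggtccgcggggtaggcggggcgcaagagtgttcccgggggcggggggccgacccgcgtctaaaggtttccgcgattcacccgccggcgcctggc

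ALDOC held 5 matches, 2 of them overlapping in CACGTG, and PFKFB3, PFKFB4, ENO2 and FBP1 held 1 each. Of the other genes that passed in the mean of both lines, ENO3, which rose, and ENO1, which fell, held 2 each, and TPI1 and PKM, which rose, and GPD2 and TKT, which fell, held 0. Of the 32 members with a promoter in the table, 18 held ACGTG or GCGTG (56.2%), and 43.1% of all 27305 promoters of that length did. CACGTG was in 6.25% of the members' promoters and 6.49% of all, and GGGCGG, the letters bound by SP1, in 75.0% and 42.3%, on either strand. These matches describe letters, not binding.

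H9 and HSF1 differed in unconditioned medium. 9 of the 34 genes passed, 3 higher in HSF1 and 6 lower, where 23.6% of all genes tested passed, 10.2% higher and 13.4% lower. PRPS1, a ribose phosphate kinase like PRPS2, was at 12.26, 12.16 and 12.14 in H9, and at 11.40, 11.37 and 11.26 in HSF1. The groups lay far apart, the difference was -0.84 (SE 0.0627, adjusted p = 7.78e-08), and it kept its call in 22 of 22 alternatives. Conditioned cells were at 12.02, 12.08 and 12.03 in H9, and at 11.43, 11.36 and 11.25 in HSF1, so the order of the lines held there too. In the other set of arrays, feeder-free H9 with DMSO was at 12.10 and HSF1 at 11.46. PRPS2 was 0.36 lower in HSF1 (adjusted p = 0.0113), with both probe sets of each PRPS gene past the threshold.

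PGLS, the lactonase of the oxidative pentose branch, was at 9.85, 9.34 and 9.58 in H9, and at 10.08, 10.17 and 10.23 in HSF1 and was higher in HSF1 by 0.57 (SE 0.118, adjusted p = 0.00258). TPI1 was higher in HSF1 by 0.34 (SE 0.064, adjusted p = 0.00122) and ENO2 by 0.24 (SE 0.0758, adjusted p = 0.0278), at the levels given above. HK1 was at 10.91, 11.03 and 11.09 in H9, and at 10.74, 10.76 and 10.71 in HSF1, and differed by -0.27 (SE 0.0669, adjusted p = 0.00766). GPD2, TKT and PFKP were lower in HSF1 by 0.36, 0.21 and 0.23 (adjusted p = 0.0151, 0.0174 and 0.0282). Without H9 unconditioned arrays 2 and 3 the 9 became 3. The differences of PRPS2 (-0.10), GPD2 (-0.15), TKT (-0.09), PGLS (0.31), HK1 (-0.18) and PFKP (-0.15) then became smaller. Leaving out 1 array gave 4 (without HSF1 unconditioned array 2) to 13, with 5 without H9 unconditioned array 2 or 3. Shares of all genes passing in these fits are not given here.

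**Figure D5:**
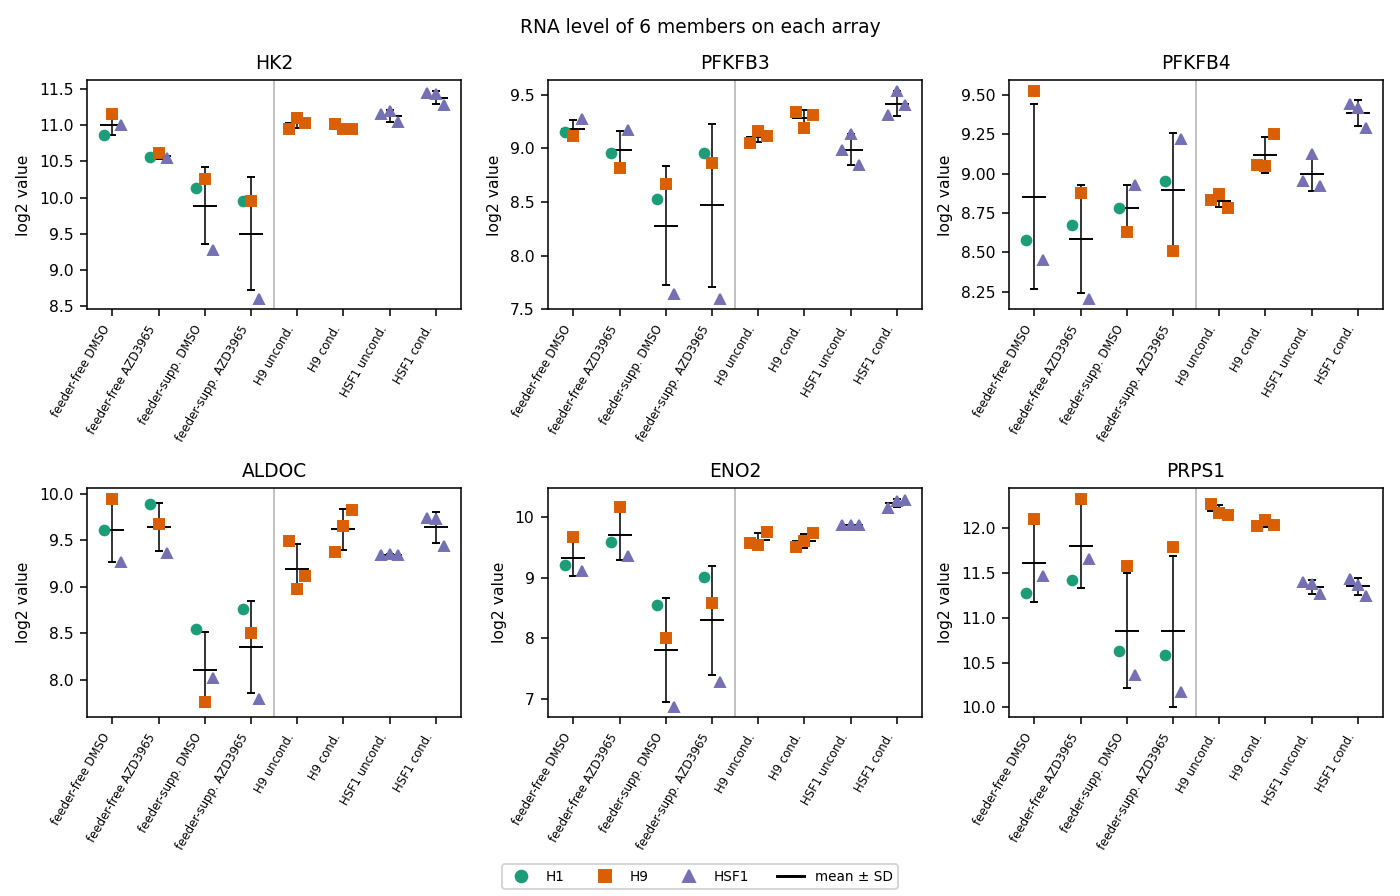
Log2 value of 6 genes on each of the 24 arrays, by group, with the line shown by symbol and the mean with its SD (n = 3) in black; the vertical line divides the 2 sets of arrays. HK2, ALDOC and ENO2 are lower in both feeder-supported groups, PFKFB3 and PFKFB4 are higher in conditioned medium, and PRPS1 is higher in H9 (squares) than in HSF1 (triangles) in each group.

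The rest of the pathway was read from a list of 43 other genes of glucose metabolism, of which 39 were on the array. Feeder-supported against feeder-free with DMSO, 35 were tested, 11 were lower and 4 higher, with a median of -0.19. Of all genes tested 24.1% were lower and 15.2% higher, and their median was -0.19 as well. FBP2, the muscle fructose bisphosphatase, rose by 1.22 (SE 0.214, adjusted p = 0.00477), and the transporters SLC2A6 and SLC2A10 fell by 1.38 and 1.44 (adjusted p = 0.00723 and 0.00966). G6PC3, a glucose 6-phosphatase, fell by 0.89. With the inhibitor in both cultures 13 were lower and 5 higher, where 27.8% of all genes tested were lower and 19.3% higher. None passed for the inhibitor itself, where at most 0.842% of all genes tested did.

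With conditioned medium 34 of these genes were tested, of which 1 rose and 5 fell in H9 and 3 rose and 5 fell in HSF1. Of all genes tested 3.45% rose and 13.0% fell in H9, and 8.57% rose and 9.78% fell in HSF1. DERA, the deoxyribose phosphate aldolase, fell by 0.51 (SE 0.067, adjusted p = 9.07e-05) in H9 and by 0.62 (SE 0.067, adjusted p = 8.29e-06) in HSF1, more than any of the 34 members in either line. RBKS, the ribokinase, fell by 0.34 and 0.41. PGM1, the phosphoglucomutase that links glycogen to glycolysis, rose in HSF1 by 0.77 (SE 0.0671, adjusted p = 7.49e-07). SLC2A13, an inositol transporter of the same family, rose in HSF1 by 0.63 (adjusted p = 5.48e-04).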

How the data were processed

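RNA of 24 cultures was measured on Affymetrix U133 Plus 2.0 arrays, 1 array a sample. The deposited table holds log2 values per probe set that the authors obtained with RMA, per the submitters' processing notes. Its version, and whether both sets of 12 arrays were processed together, is not given in the sources used here. Array medians were 6.09 to 6.35, and the number of arrays limits the precision.

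Probe sets with exactly 1 gene symbol in the platform annotation were used; 1801 of the 54675 had several symbols and 11777 had none. 3 probe sets that name a member beside another gene were left out. Each gene was represented by its probe set with the highest mean over 24 arrays and tested where it exceeded log2 5 on at least 3 arrays of a set.

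Differences were fitted with limma 3.58.1 (lmFit and eBayes with trend) in R 4.3.3, separately for each set, with Benjamini-Hochberg adjustment over all genes tested and a threshold of 0.05. The inhibitor set had the line as a block, because the labels give the same line for arrays of the same replicate number. Within a line and culture, the arrays with DMSO and with inhibitor were treated as independent. The medium set had no block. Nothing beyond the label biological replicate says how the 3 medium cultures of a group were separated. Probe sets were fitted in the same way. The procedure was tested on simulated data with independent noise and no differences between lines, so that test does not cover lines that differ in their response.

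The members and gene lists were chosen with earlier results of these data known. All members could be named. Array values were given for the members past the threshold, at most the 8 with the smallest adjusted p in a comparison, and always for SLC2A1, SLC2A3, HK2, ALDOC, GAPDH, PKM, PFKFB3 and ENO2. Where array values or examples of other members are given, these were chosen after their values were seen. Of the other pathway genes at most 4 a comparison were named. Alternatives were quantile normalization, other filters, probe set summaries, blocks and covariates, array weights, no trend, a fit on all 24 arrays and leaving out arrays. Promoters are from RefSeq, matched by symbol.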

Additional observations from a re-analysis of the deposited data

Results flagged for a closer look

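ENO2 responded differently to conditioned medium in the 2 lines. Its difference was 0.37 in HSF1, with higher values on all 3 conditioned arrays than on any unconditioned array, and -0.01 in H9. The difference between these responses was 0.38 (SE 0.107, adjusted p = 0.0412 by limma's interaction test). The call was lost in 13 of 23 alternatives.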

How the results depend on the processing

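The values below count the members that passed, out of 34, and where they moved the cause was not tested. The share of all genes passing in the same fit is not given except where stated. A change in a count is therefore not a result about the members in particular. Feeder-supported against feeder-free with DMSO, the 19 became 12 with quantile normalization, 0 with the ACTB covariate, 3 with no replicate block, and 0 to 18 without 1 line. With the inhibitor the 19 became 0 with the covariate, 7 with no replicate block, and 2 to 18 without 1 line. With quantile normalization 50.6% of all calls were higher, against 38.7%, over 3133 and 6772 genes.

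For the inhibitor the main counts were 0. On feeders array weights gave 8. In feeder-free culture weights gave 1, the fit on all 24 arrays 1, the replicate block of line by culture 3 and omitting the feeder-supported HSF1 arrays 3. In the mean these gave 14, 2, 10 and 2. With the replicate block 15.9% of all genes tested passed in the mean. For the other fits, array weights among them, the share of all genes is not given here.

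With conditioned medium the H9 count of 10 became 6 with the mean of probe sets, 5 with no trend, 16 with weights, and 0 on all 24 arrays, with the covariate, with the replicate block or without H9 unconditioned arrays 2 and 3, an alternative chosen after seeing the data. Leaving out 1 array gave 1 to 16. By probe set the 5 calls in H9 became 3 with no filter. The HSF1 count of 7 became 11 with weights, 0 on all 24 arrays and 4 to 8 without 1 array. The mean's 11 became 0 on all 24 arrays, 7 with the replicate block, 6 without H9 arrays 2 and 3 and 7 to 16 without 1 array. The interaction's 1 became 2 with quantile normalization or a filter at 6, 5 with weights, 0 to 6 without 1 array, and 0 with no trend, on all 24 arrays, with the covariate, with the replicate block or without H9 arrays 2 and 3. HSF1 against H9 went from 9 to 1 on all 24 arrays, 3 without H9 arrays 2 and 3 and 4 to 13 without 1 array, and could not be fitted with a block.

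In the medium set the deviations of same-numbered arrays correlated at -0.27 to 0.25 between groups, below 0.1 for at least 1 number in 5 of the 6 pairs of groups. The conditioned H9 and HSF1 arrays were the exception (0.13 to 0.34). The comparisons of media and of lines in unconditioned medium use the other pairs, so the numbers were not taken to pair the arrays. 3 values reversed with the mean of probe sets, PGD on feeders with DMSO (0.03) and with the inhibitor (0.04) and HK2 in conditioned HSF1 (-0.17). Of the gene values called, 178 of 266 kept their call over the alternatives with DMSO, 188 of 266 with the inhibitor in both cultures, 130 of 230 in conditioned H9 and 121 of 154 in conditioned HSF1.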

Other observations

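Probe sets of a gene did not always move with the chosen one. For PGK1, the phosphoglycerate kinase, 1 other probe set was at 5.51, 5.58 and 7.60 in feeder-free H1, H9 and HSF1 with DMSO and at 6.68, 8.25 and 8.43 on feeders, while the chosen PGK1 probe set differed by -0.23. For ENO1, 1 probe set that was not chosen measured 12.2, 10.5 and 10.7 on the 3 unconditioned H9 arrays. The GAPDH control probe set of the transcript's 5-prime part measured 13.8, 13.1 and 13.2 on the same arrays and that of the 3-prime part 13.8 on each. The lower values are on arrays 2 and 3, which had the large ACTB difference.

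With conditioned medium in HSF1, probe sets other than the chosen ones passed for TPI1 (0.48 and 0.25), RPE (-0.39), GPD2 (-0.53), SLC2A3 (-0.51), PFKL (0.27) and, as given above, HK2. The chosen probe sets of RPE, GPD2, SLC2A3 and PFKL did not pass there, at -0.05, -0.13, -0.06 and 0.21, and that of TPI1 passed among genes but not among probe sets (adjusted p = 0.0507).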
